A study of Mus musculus with 15 samples.

Results

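The genes for the proteins of the cytosolic ribosome were described across RNA sequencing libraries of mouse eosinophils from esophagus, colon and bone marrow. They were taken by symbol from a table of raw counts: names starting with Rpl or Rps and a number, with Rplp0 to Rplp2 and Rpsa, and without pseudogenes. This took 101 of 26366 genes. Of these, 46 were proteins of the large subunit and 31 of the small subunit, 77 ribosomal proteins in all. Another 13 were paralogs or retrogene copies of such proteins. The remaining 11 are not ribosomal proteins although their symbols fit, namely 10 kinases of the Rps6k family, called S6 kinases below, and Rps19bp1, a protein that binds Rps19. The kinases serve as genes counted in the same libraries that are not part of the ribosome.

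The 15 libraries came from 7 C57/BL6 WT mice at a stage the labels call pre-cancer. Every mouse had been given 4-NQO, a carcinogen that acts on the esophagus, for 8 weeks, with propylene glycol for another 8 weeks, and no untreated mouse is included. Eosinophils, granulocytes of type 2 immunity, were selected with magnetic beads from the lamina propria of the esophagus (7 libraries, from mice 1, 2, 3, 5, 6, 7 and 8) and of the colon (4 libraries, from mice 5 to 8). A further group of 4 libraries, from mice 5 to 8 too, is described as bone marrow-derived, without saying whether these cells were cultured. Mice 1, 2, 5 and 6 were F and shared cage 1, and mice 3, 7 and 8 were M and shared cage 2, so sex and cage cannot be told apart. The labels give no age.

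A ribosome holds a single copy of nearly every ribosomal protein, together with ribosomal RNA. The mRNAs of these proteins are short, are among the most abundant in most growing cells, and start with a run of pyrimidines, C and T in the DNA, called a 5′ terminal oligopyrimidine (TOP) motif. Through it the kinase mTOR and the RNA-binding protein Larp1 adjust their translation together. Of the S6 kinases, Rps6kb1 and Rps6kb2 act below mTOR and phosphorylate the ribosomal protein Rps6. The Rps6ka genes encode RSK and MSK kinases, which act below MAP kinases, and Rps6kc1 and Rps6kl1 are relatives by sequence.

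The first bases of these genes were read for runs of pyrimidines near an annotated start. A window of 30 bases, 15 before the RefSeq transcript start and 15 from the start on, was read on the gene's strand from RefSeq on build GRCm38.p6, for the 57 of 77 ribosomal protein genes that have an entry. The windows below, each the end of a promoter and the beginning of a first exon, belong to members that carry the results: Rps9, Rpl13a and Rps2 had the most counts in the colon library of mouse 8, Rpl7a had the smallest p between tissues, and Rpl38 between cages. Rps6kb1, which acts below mTOR, and Rps6ka5, an MSK kinase, are shown for contrast. Capitals mark the longest run of C and T that reaches within 5 bases of the start.
Rps9 (chr7:3704026-3704055, + strand): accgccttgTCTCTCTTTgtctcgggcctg
Rpl13a (chr7:45128731-45128760, - strand): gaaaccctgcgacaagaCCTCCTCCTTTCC
Rps2 (chr17:24720048-24720077, + strand): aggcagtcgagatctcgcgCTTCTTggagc
Rpl7a (chr2:26910792-26910821, + strand): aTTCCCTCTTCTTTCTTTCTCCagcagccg
Rpl38 (chr11:114668565-114668594, + strand): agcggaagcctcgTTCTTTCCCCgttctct
Rps6kb1 (chr11:86544793-86544822, - strand): cgcatgcgccggagctgaaCTTgaggagcc
Rps6ka5 (chr12:100725106-100725135, - strand): tcctgggctggCTgtgggaggagcggcctg

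The run was 21 bases long in Rpl7a, 13 in Rpl13a, where it reached the end of the window, 10 in Rpl38, 9 in Rps9 and 6 in Rps2. It was 3 in Rps6kb1 and 2 in Rps6ka5. A run of 8 or more was found in 19 of the 57 ribosomal protein genes (33.3%), in 0 of 8 S6 kinases with an entry, and in 9.63% of 27025 genes with a window. A run did not have to begin at the start, and a single listed start was read per gene. These shares are therefore not counts of genes with a TOP motif. The letters CTTTC stood in the 30 bases on the gene's strand in 15 of the 57 (26.3%), against 3.97% of all genes. On the other strand they stood in 3 (5.26%), against 3.43%. In the full RefSeq window of 300 bases around the start, CCGGAAG, a core that factors of the Ets family such as Gabpa bind, was found on either strand in 23 of the 57 (40.4%), against 9.12% of all genes. AAGATGG, the core bound by Yy1, was found in 8 (14.04%), against 6.48%.

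The libraries are shallow. Total counts were 85677 to 371218 in esophagus, 227179 to 612386 in colon, against 189060 to 286166 in bone marrow. Where no read was counted the true value may be as high as 3 counts, or 4.90 to 35.0 CPM (counts scaled to a common library total). Detection differed between the tissues: 44 to 81 of the 101 members had a count in an esophagus library, 86 to 97 in a colon library and 75 to 89 in a bone marrow library. Libraries of nearly equal depth also differed. In esophagus of mouse 7, with 227133 counts, 67 members had a count, and in colon of mouse 6, with 227179 counts, 86 did. Of the 77 ribosomal proteins, 4 were detected in all 7 esophagus libraries, against 65 in all 4 colon and 40 in all 4 bone marrow libraries. Those 4 were Rps3, Rps19, Rps24 and Rps28, and they had counts in all 15 libraries. Rpl17 and Rps15 had 0 counts in every esophagus library. Markers of eosinophils were low in every group: Epx, which encodes eosinophil peroxidase, had no count in any of the 7 esophagus libraries, 0 to 9 counts in colon libraries, and 2 to 5 in bone marrow. The 12 eosinophil markers together held 113 to 479 CPM in esophagus, 146 to 207 in colon, against 83.9 to 164 in bone marrow.

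Ribosomal protein genes took a larger share of the counts in every esophagus library than in any bone marrow library, and in the colon the share was small in 3 libraries and large in that of mouse 8. The 101 members held 0.789, 0.343, 0.870, 0.706, 0.360, 0.358 and 0.441% of counts in esophagus of mice 1, 2, 3, 5, 6, 7 and 8. In colon of mice 5, 6, 7 and 8 they held 0.241, 0.232, 0.238 and 1.36%, and in bone marrow of the same mice 0.297, 0.278, 0.271 and 0.249%. Means were 0.552 ± 0.228% in esophagus (SD, n = 7), 0.519 ± 0.564% in colon (SD, n = 4) and 0.274 ± 0.0201% in bone marrow (SD, n = 4). Without colon of mouse 8 the colon mean was 0.237 ± 0.00484% (SD, n = 3), below every bone marrow library. Since the members were chosen as a set, no p is given for their share.

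**Figure D1:**
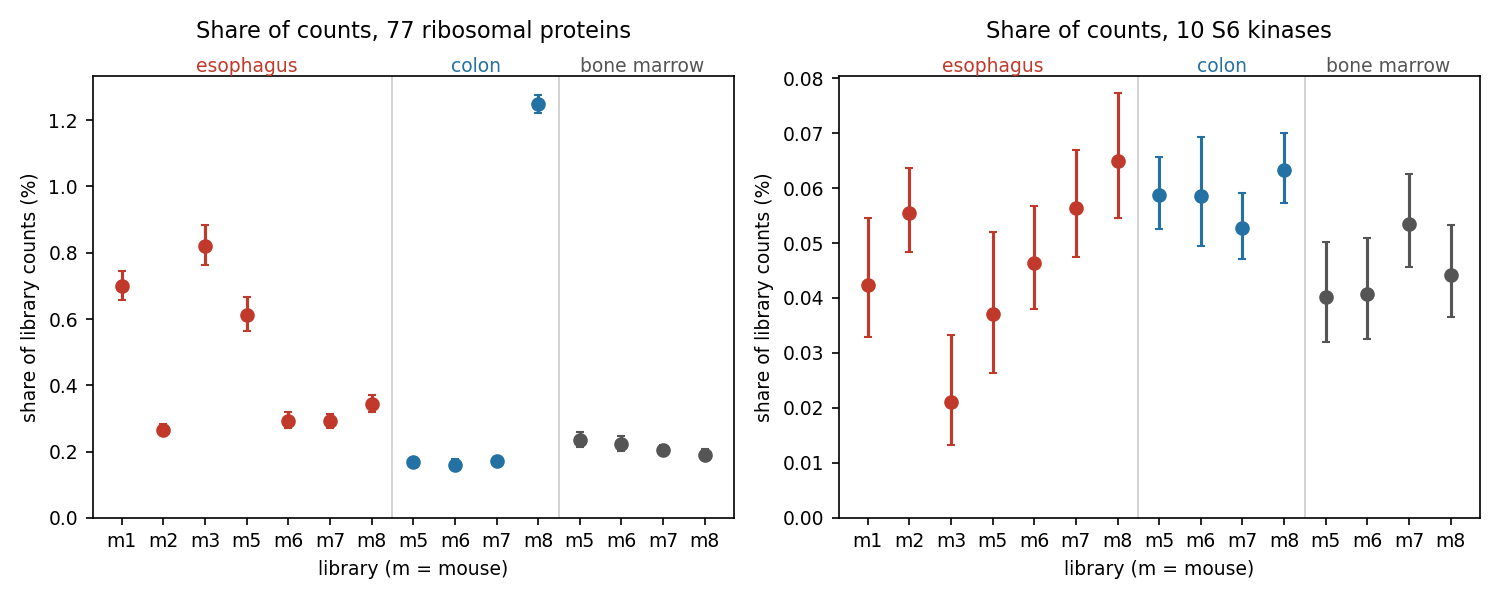
Share of library counts (%, y axis) held by the 77 ribosomal proteins (left) and the 10 S6 kinases (right) in each of 15 libraries (x axis, m = mouse), with 95% Wilson intervals for counting error as bars. The ribosomal proteins held 1.25% in colon of mouse 8 and 0.159 to 0.172% in the other colon libraries, while the S6 kinases stayed between 0.0210 and 0.0649% in all 15.

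The same order held within each mouse that gave all tissues, with an exception in mouse 8. The members' share in esophagus was 2.37, 1.30, 1.32 and 1.77 times that in bone marrow of mice 5, 6, 7 and 8. In colon it was 0.810, 0.834 and 0.880 times that in bone marrow of mice 5, 6 and 7, and 5.49 times in mouse 8. Between the cages, esophagus means were 0.549% in cage 1 (n = 4) and 0.556% in cage 2 (n = 3), against 0.288% and 0.260% in bone marrow (n = 2 each). Colon means were 0.236% in cage 1 and 0.801% in cage 2 (n = 2 each), the second with mouse 8. The 3 esophagus libraries with the fewest counts, those of mice 1, 3 and 5, had the 3 highest shares, 0.706 to 0.870%, against 0.343 to 0.441% in the other 4. Without those 3 the esophagus mean was 0.375%, still above each bone marrow library. The part of depth in this order was not tested. In bulk samples such as these, fewer cells of a type and less RNA per cell cannot be told apart.

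Per length, ribosomal protein genes had between 0.529 and 6.27 times the counts of smell receptor genes. Smell receptor genes (olfactory and vomeronasal, 1420 genes) act in sensory neurons and served as a reference measured in the same library. They did not mark the lowest level, as they had more counts per kilobase than 17930 other coding genes in every library. They had 8.35 against 4.68 in colon of mouse 5 and 2.04 against 1.77 in bone marrow of mouse 5. A ratio below 1 thus does not mean a level below background. How much of the counts of either set is background was not tested. The 77 ribosomal proteins had 3.29, 1.15, 3.68, 2.96, 1.22, 1.22 and 1.39 times the counts per exonic kilobase of smell receptor genes in esophagus of mice 1, 2, 3, 5, 6, 7 and 8. In colon the ratio was 0.635, 0.529, 0.739 and 6.27 for mice 5, 6, 7 and 8, and in bone marrow 1.34, 1.21, 0.962 and 0.953. The colon libraries of mice 5, 6 and 7 thus held fewer ribosomal protein counts per kilobase than smell receptor counts, while that of mouse 8 held over 6 times as many. Set against 17930 other coding genes, ribosomal proteins had 1.78 to 5.77 times the counts per kilobase in esophagus, 1.11 to 1.13 times in the first 3 colon libraries, 8.84 times in colon of mouse 8, and 1.23 to 1.54 times in bone marrow.

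**Figure D2:**
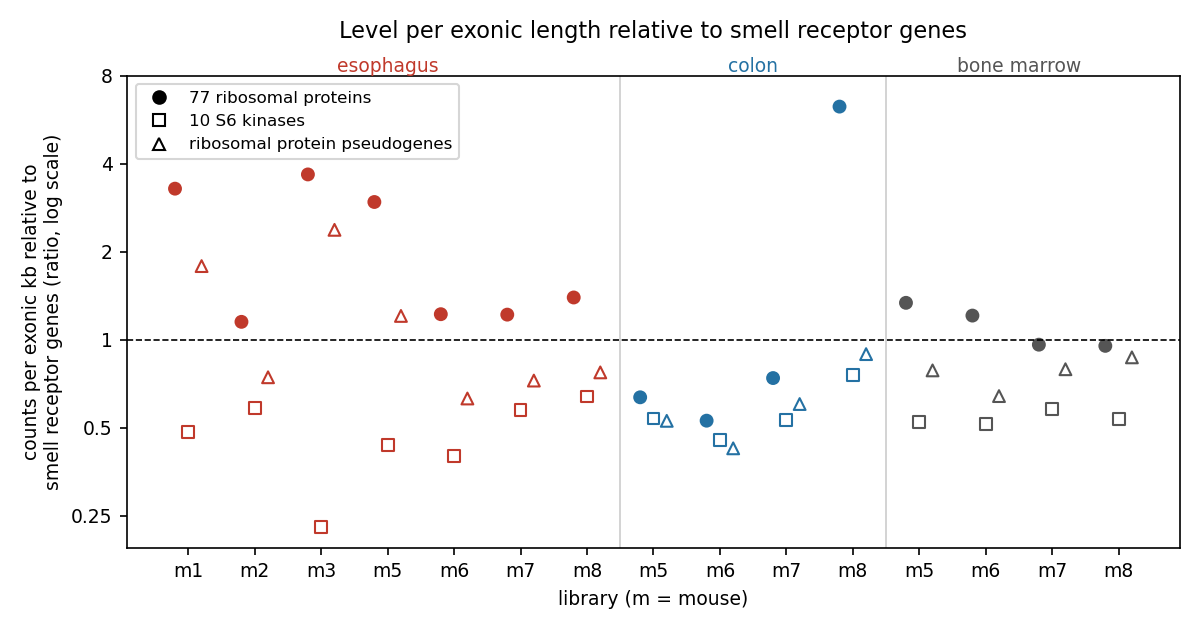
Counts per exonic kilobase relative to smell receptor genes (ratio, log y axis, 1 dashed) in each library (x axis) for the 77 ribosomal proteins (filled circles), the 10 S6 kinases (squares) and 152 ribosomal protein pseudogenes (triangles). Colon of mouse 8 stands at 6.27 for ribosomal proteins, and the S6 kinases stay between 0.229 and 0.758 in all libraries.

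The ratio of counts per kilobase, large over small subunit genes, lay on both sides of 1 in each tissue. It was 0.746 to 1.16 in esophagus, 0.778 to 1.09 in colon, against 0.639 to 1.43 in bone marrow. It was 0.999 in colon of mouse 8. In bone marrow it was 1.15 and 1.43 in mice 5 and 6 of cage 1, and 0.639 and 0.798 in mice 7 and 8 of cage 2. The S6 kinases held 0.0210 to 0.0649% of counts in esophagus, 0.0527 to 0.0634% in colon, against 0.0401 to 0.0535% in bone marrow. Their share in colon of mouse 8, 0.0634%, lay within the esophagus range, but Rps6ka3 alone gave 185 of its 388 kinase counts. The other 9 kinases held 0.0331% there, against 0.0498 to 0.0548% in the other colon libraries. The lowest kinase share was that of esophagus of mouse 3, where they had 0.229 times the smell receptor level per kilobase, against 0.400 to 0.758 in the other 14 libraries. Pseudogenes of ribosomal proteins, 152 in the table, had 0.629 to 2.38 times the smell receptor level in esophagus, 0.425 to 0.893 times in colon, against 0.641 to 0.870 times in bone marrow. Reads from a spliced ribosomal protein mRNA can match such a copy, and the labels do not say how shared reads were assigned, so levels of single genes with close copies are uncertain.

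In 3 colon libraries a ribosomal protein gene's count followed the length of its exons, and in colon of mouse 8 it did not. Across the 77 genes, Spearman's rho between count and exonic length was 0.667, 0.714 and 0.781 in colon of mice 5, 6 and 7, and -0.003 in colon of mouse 8. It was 0.116 to 0.329 in esophagus and 0.287 to 0.402 in bone marrow. Over 17930 other coding genes rho was 0.370 to 0.851, and 0.712 in colon of mouse 8. These are descriptions across genes that share a library, and genes are not independent replicates.

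**Figure D3:**
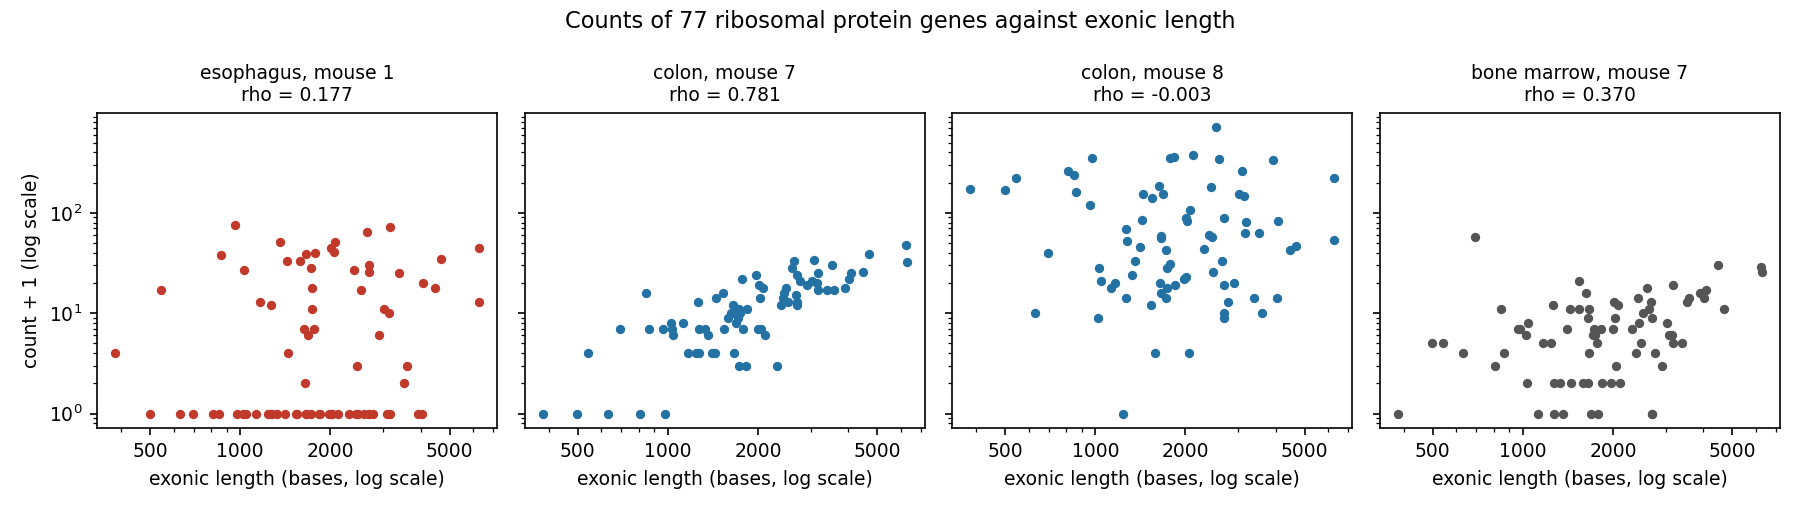
Count plus 1 of each of the 77 ribosomal protein genes (log y axis) against exonic length in bases (log x axis) in 4 libraries, with Spearman's rho above each panel. Points line up along length in colon of mouse 7 (rho 0.781) and do not in colon of mouse 8 (rho -0.003); points at 1 are genes with 0 counts.

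Single members made up the colon library of mouse 8 unevenly. It held the highest share of counts of all 15 libraries for 31 of the 101 members (30.7%), against 4.1% of all 26366 genes and 3.16% of the 10357 with enough counts to test. By class this was 17 of 46 large subunit genes, 9 of 31 small subunit genes, 4 of 13 paralogs and 1 of 10 S6 kinases. The kinase was Rps6ka3, with 185 counts, against 11 to 20 in the other colon libraries. An esophagus library held the highest share for 48 of the 77 ribosomal proteins (62.3%), a smaller part than the 68.9% of all genes. Esophagus of mouse 1 did so for 19 of the 77 (24.7%, against 10.4% of all genes). A bone marrow library did so for 3 (3.90%, against 17.7% of all genes). None of the 77 peaked in colon of mice 5, 6 or 7, where 2.75, 4.35 and 2.24% of all genes did.

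Among small subunit proteins, Rps9 stood out; with Rps2 and Rps3 it lines the channel where mRNA enters. In esophagus Rps9 had 0 to 153 CPM, with a median of 51.1. In colon of mice 5, 6, 7 and 8 it had 32.7, 13.2, 21.6 and 1159 CPM, and in bone marrow 26.4, 68.8, 31.5 and 20.3. Colon of mouse 8 is thus alone, with 710 of its counts on this gene, while the other colon libraries lie in the range of the other groups. Rps2 had 358 counts in that library, against 1, 1 and 2 in the other colon libraries, 0 to 14 in esophagus and 0 to 6 in bone marrow.

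Rps3a1, whose protein sits near the mRNA exit, had 348 counts in colon of mouse 8 (568 CPM) and 0 in the other 3 colon libraries. It had 0 to 157 CPM in esophagus, with a median of 0, and 10.6, 21.2, 20.97 and 16.2 in bone marrow. Rps21 had 426 CPM in colon of mouse 8, against 7.70, 0 and 0 in the other colon libraries. Elsewhere Rps21 had 0 to 123 CPM in esophagus and 0 to 37.0 in bone marrow.

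Rps6, the substrate of Rps6kb1 and Rps6kb2, did not share this. It had 0 to 226 CPM in esophagus, with a median of 22.01. In colon of mice 5, 6, 7 and 8 it had 7.70, 17.6, 14.4 and 4.90, and in bone marrow 47.5, 26.4, 3.49 and 36.5. The 4.90 in colon of mouse 8 stands for 3 counts. Rpsa, which also serves as a laminin receptor outside the ribosome, reached its highest level in esophagus of mouse 1, at 508 CPM. Its median was 78.1 in esophagus. It had 34.6, 17.6, 28.8 and 101 in colon, against 42.3, 5.29, 62.9 and 36.5 in bone marrow, so the groups overlapped. Rps27a, made as a fusion with ubiquitin, had 0 to 214 CPM in esophagus, with a median of 14.8. It had 25.02, 48.4, 41.4 and 34.3 in colon of mice 5 to 8 and 26.4, 5.29, 3.49 and 0 in bone marrow. Colon of mouse 8 is here in the middle of its group.

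Among large subunit proteins, Rpl13a had 614 CPM in colon of mouse 8, against 11.5, 0 and 8.998 in colon of mice 5, 6 and 7. Its bone marrow levels were 31.7, 5.29, 3.49 and 20.3, and its esophagus levels 0 to 236 with a median of 26.9. In human monocytes under interferon gamma the Rpl13a protein leaves the ribosome and represses translation of inflammatory mRNAs. Rpl23, which with Rpl5 and Rpl11 can bind the p53 regulator Mdm2, had 568 CPM in colon of mouse 8 and 13.5, 17.6 and 37.8 in the other colon libraries. Rpl5 had 334 counts there, against 21, 6 and 17, while Rpl11 had its highest share in esophagus of mouse 1. Members of this Mdm2-binding group thus did not all peak in the same library.

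Rpl36, the shortest of the 77 by exonic length, had the most counts per kilobase over all libraries, 580, of which colon of mouse 8 gave 452. It had 0 counts in 9 libraries. Rpl38 came next, with 500 per kilobase, then Rps3a1, Rplp1 and Rps21 with 416, 415 and 410. Colon of mouse 8 gave the larger part of each of these sums. Rpl23a, near the exit of the peptide tunnel, had 384 CPM in colon of mouse 8, 8.80 to 26.99 in the other colon libraries, 0 in 6 of 7 esophagus libraries and 0 to 34.9 in bone marrow. Rpl32 was different: its highest level was 529 CPM in esophagus of mouse 1, with a median of 169 in esophagus. It had 17.3, 4.40, 10.8 and 194 in colon, with 52.8, 0, 20.97 and 28.4 in bone marrow.

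The stalk that recruits elongation factors is built from Rplp0, Rplp1 and Rplp2. Rplp0, its base, had 94.7 CPM in colon of mouse 8, against 5.77, 8.80 and 16.2 in the other colon libraries, 0 to 32.3 in esophagus and 0 to 47.5 in bone marrow. Rplp1 had 276 CPM there, against 5.77, 0 and 0. Rplp2 had 171 there, against 9.62, 13.2 and 30.6, but reached 353 in esophagus of mouse 1, and its esophagus median was 49.3. All 3 stalk genes were thus highest in mouse 8 among colon libraries, and for Rplp2 an esophagus library was higher. Rpl41, the smallest ribosomal protein, had 21.2, 17.6, 5.40 and 31.0 in colon, a median of 48.4 in esophagus, and 89.8, 37.0, 13.98 and 8.10 in bone marrow. Rpl10, which joins the large subunit late, had 3 counts in colon of mouse 8 and Rpl35 had 0, so that library was not high throughout.

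**Figure D4:**
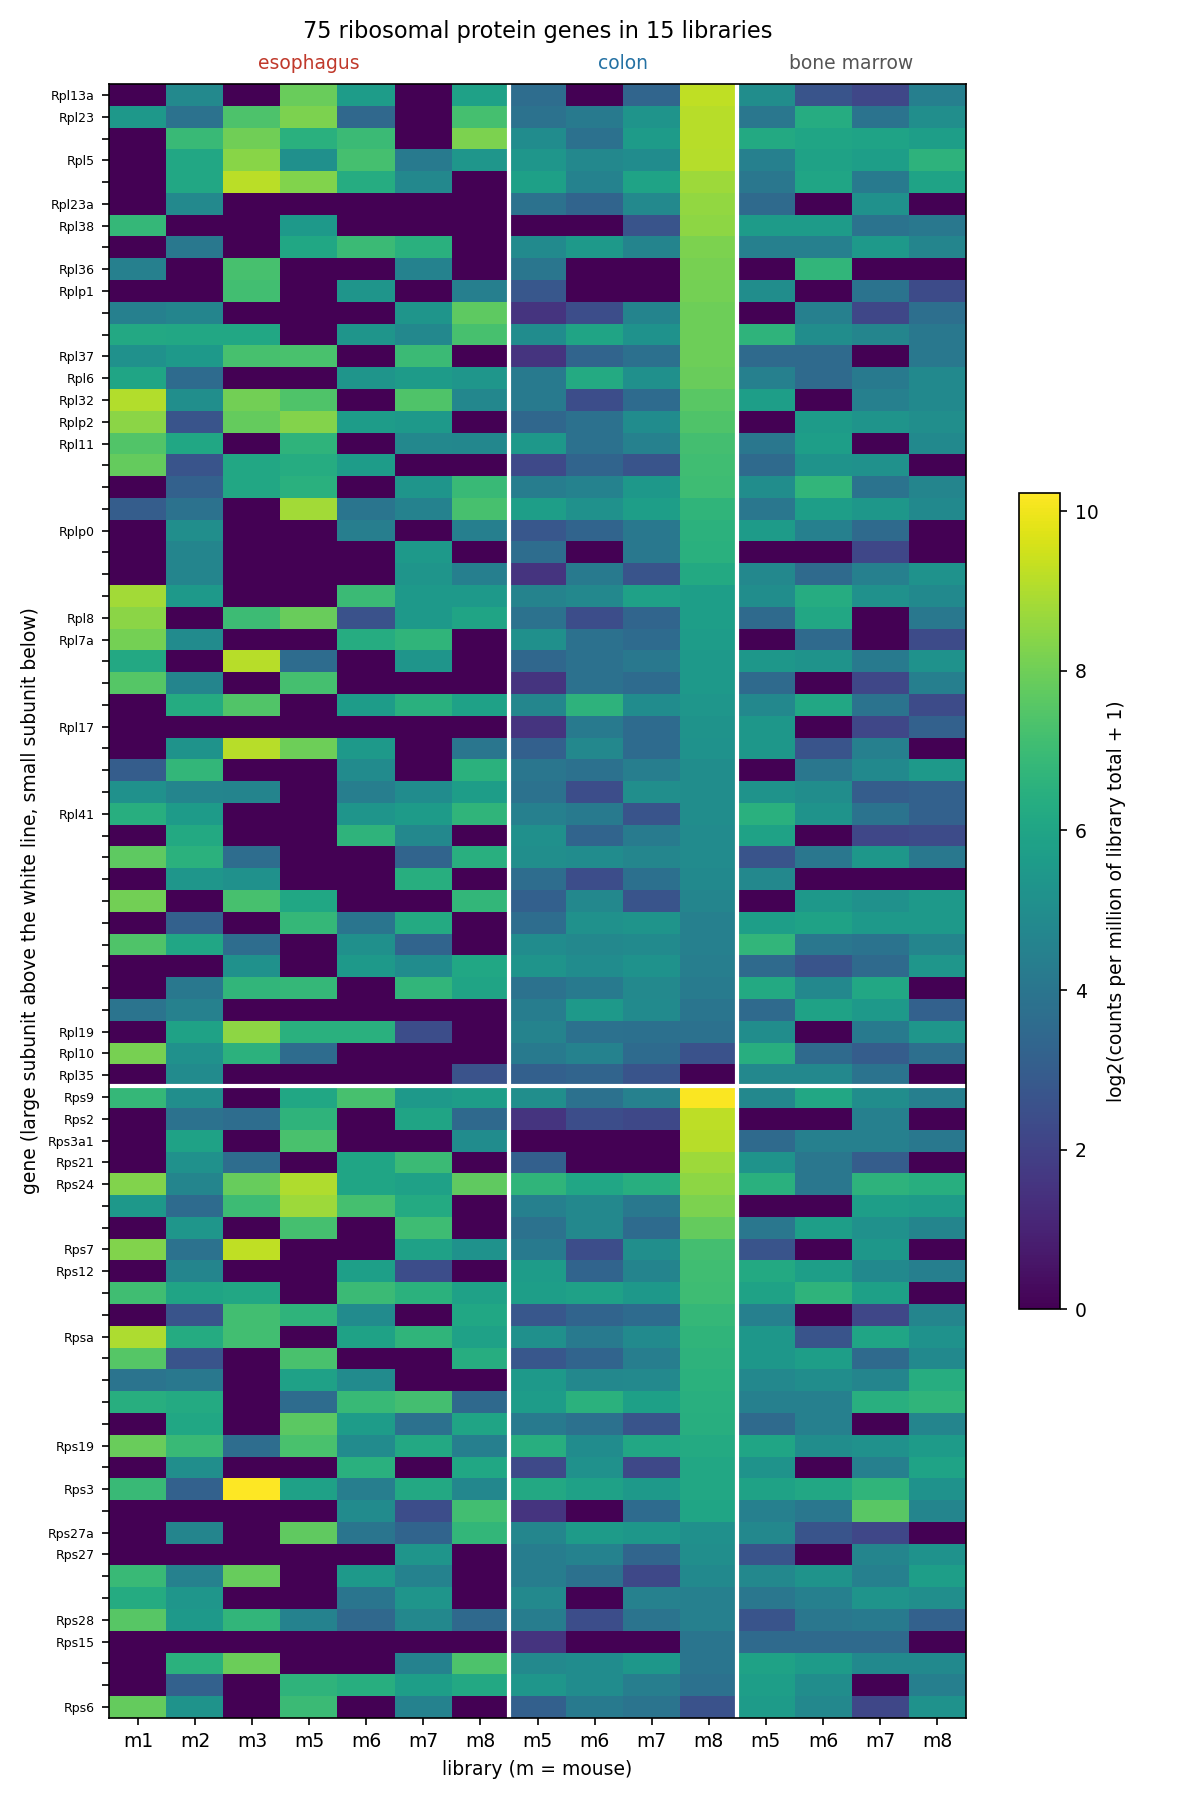
Level of 75 ribosomal protein genes (rows, large subunit above the white line, symbols on those named in the text) in each library (columns, m = mouse), as log2 of CPM plus 1, sorted within each subunit by the level in colon of mouse 8. Rps9 at 1159 and Rpl13a at 614 CPM lead that column, esophagus columns mix high values with zeros, and Rpl35, at 0, ends the large subunit.

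Tests between tissues were run with edgeR's quasi-likelihood test over all 15 libraries, with p-values adjusted by Benjamini-Hochberg over the 10357 genes that had enough counts. Of the 101 members, 54 were among them: 25 large subunit genes, 21 small subunit genes, 2 paralogs and 6 S6 kinases. No member passed an adjusted p of 0.05 in any of the 3 comparisons. The whole table had 0.83% of genes called between esophagus and bone marrow (0.0193% higher and 0.811% lower in esophagus). Between colon and bone marrow 0.434% were called, all lower in colon, and between esophagus and colon 0.0869% (0.0676% higher and 0.0193% lower in esophagus). At an unadjusted p under 0.05, 4 members had higher values in esophagus than in bone marrow and 0 had lower ones (0.686% and 3.9% of all genes). In colon against bone marrow 2 were higher and 0 lower (0.512% and 1.6% of all genes). In esophagus against colon 1 was higher and 3 lower (0.579% and 2.08% of all genes). DESeq2 and limma voom also called 0 members in each comparison.

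Most tested ribosomal proteins had fold changes above the median of all genes in both comparisons with bone marrow, and in colon this rested on the library of mouse 8. The filter keeps genes that are high in any group, so these counts describe the 46 tested and not all 77. The group through which a gene passed also bears on the sign of its fold. The counts are therefore no test of a direction. Of the 46, 37 had a positive log2 fold change in esophagus against bone marrow and 33 in colon against bone marrow, where 40.4% and 51.8% of all tested genes did. Their median log2 fold change was 0.70 in esophagus against bone marrow (all genes -0.18) and 0.89 in colon against bone marrow (all genes 0.02). The 6 S6 kinases had medians of -0.11 and -0.16. These 2 comparisons share the bone marrow libraries. Without colon of mouse 8, the median in colon against bone marrow was -0.64, with 9 of 45 positive (50.2% of all genes). Without any other single library it was 0.65 to 1.24. The median in esophagus against bone marrow was 0.48 to 0.89 with any single library left out. Without the esophagus libraries of mice 1, 3 and 5 it was 0.33 over 30 tested genes (all genes 0.0008). In that setting 21 of the 30 were positive, against 50.1% of all genes. Between esophagus and colon the median of the 46 was -0.05 (all genes -0.21), and its sign depended on the scaling. It was 0.24 with relative log expression factors (all genes 0.01), 0.35 with library size alone (all genes -0.03) and 0.05 with upper quartiles (all genes -0.24). With each scaling the median of the 46 lay above that of all genes. It was also positive without esophagus of mouse 2, 6, 7 or 8, at 0.04 to 0.17, and was 1.36 without colon of mouse 8, with 41 of 45 positive.

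**Figure D5:**
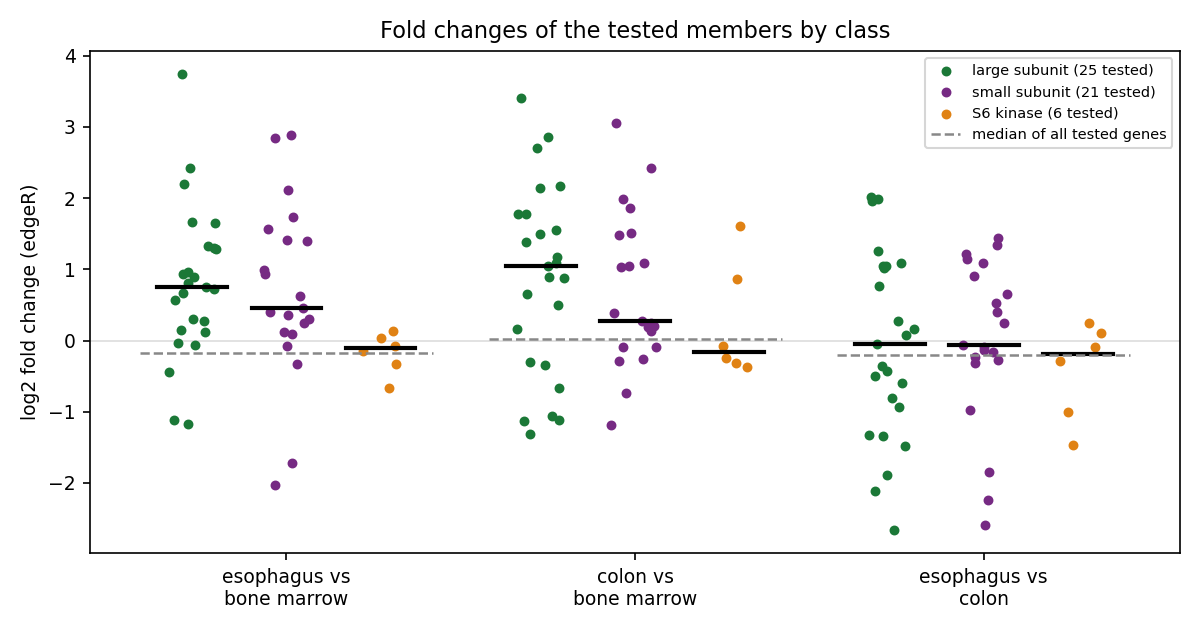
Log2 fold changes from edgeR (y axis) of tested large subunit genes, small subunit genes and S6 kinases in the 3 comparisons (x axis); each point is a gene, black bars are class medians, and dashed lines are medians of all tested genes. Large subunit medians were 0.75, 1.05 and -0.05, those of the S6 kinases -0.11, -0.16 and -0.19, and 2 tested paralogs are not drawn. All libraries are included; without colon of mouse 8 the median of both subunits in colon against bone marrow was -0.64.

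Rpl7a had the smallest p in esophagus against bone marrow. It had 0 to 275 CPM in esophagus, with a median of 29.6, and 0, 10.6, 0 and 4.05 in bone marrow. Its esophagus values were 0 in 3 of 7 libraries, so the groups overlapped. The log2 fold change was 3.75 (SE 1.35), with an edgeR adjusted p of 0.338. Rpl37 and Rps7 had log2 fold changes of 2.42 (SE 1.18) and 2.89 (SE 1.36), each with an edgeR adjusted p of 0.999. Rps7, like Rpl5 a protein that can bind Mdm2, had 41.9 CPM in bone marrow of mouse 7 and 0 to 5.28 in the other 3; without that library its log2 fold change was 5.41 and its edgeR adjusted p 0.0402. Rps12 was the largest fold in the other direction, at -2.03 (SE 1.04, edgeR adjusted p 0.999). It had a median of 0 in esophagus and 73.9, 52.9, 28.0 and 20.3 CPM in bone marrow.

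In colon against bone marrow, Rpl37 and Rps9 had the smallest p, with log2 fold changes of 2.85 (SE 1.25) and 3.05 (SE 1.41), each with an edgeR adjusted p of 0.9999. Rpl13a had the largest fold, 3.41 (SE 1.89). All 3 rested on colon of mouse 8: without that library they were -0.48 for Rpl37, -0.95 for Rps9 and -1.24 for Rpl13a. Rpl6, at 2.17 (SE 1.11), had 17.3, 74.8, 34.2 and 237 CPM in colon of mice 5, 6, 7 and 8 and 21.1, 10.6, 17.5 and 28.4 in bone marrow. Rps9 and Rps2 each passed the threshold when libraries other than colon of mouse 8 were left out: both without colon of mouse 5, 6 or 7, Rps9 without bone marrow of mouse 6, and Rps2 without bone marrow of mouse 7.

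In esophagus against colon, Rps12 and Rps9 had log2 fold changes of -2.24 (SE 1.01) and -2.60 (SE 1.12), and Rpl6 -1.89 (SE 0.91). Rpl8, close to the peptidyl transferase centre, went the other way at 2.02 (SE 1.01). It had 0 to 353 CPM in esophagus, with a median of 61.3, and 13.5, 4.40, 8.998 and 52.3 in colon. Rpl19 had 1.99 (SE 1.09), with esophagus of mouse 3 at 362 CPM and all 4 colon libraries between 12.6 and 23.1. Each of these 5 had an edgeR adjusted p of 0.9999. Rpl38 had the largest fold, -2.67 (SE 1.60), and without colon of mouse 8 it was 2.81. Rps9 passed the threshold without colon of mouse 5, 6 or 7, or without bone marrow of mouse 6 or 8, and was 1.36 without colon of mouse 8.

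A test of whether tissue differences differed between the cages gave 5 of 10357 genes (0.0483%), Rpl38 among them with an edgeR adjusted p of 0.0440. In mice, loss of a copy of Rpl38 alters the axial skeleton, with reduced translation of Hox mRNAs. In cage 1 it had 113, 0, 44.9 and 0 CPM in esophagus of mice 1, 2, 5 and 6, 0 in both colon libraries, and 47.5 and 47.6 in bone marrow. In cage 2 it had 0 in all 3 esophagus libraries, 5.40 and 363 in colon of mice 7 and 8, and 13.98 and 16.2 in bone marrow. The call held when colon of mouse 7 was left out and was lost when any other of the 15 libraries was; without colon of mouse 8 the adjusted p was 1.

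The 13 paralogs and retrogene copies together held 0.0101 to 0.0483% of counts in esophagus, with mice 1 and 5 at 0.0466 and 0.0483%. They held 0.0518% in colon of mouse 8 and 0.0128 to 0.0140% in the other colon libraries, against 0.0119 to 0.0211% in bone marrow. Different copies were high in different libraries. Rps12l1, a copy of Rps12, had 94 counts in colon of mouse 8 and 0 in the other 14 libraries. Rps27l, a relative of Rps27 that p53 induces, had 110 there and 0 to 3 elsewhere, and Rpl36al had 48 there and 0 to 7 elsewhere. Others were high in esophagus. Rps27rt had 24 counts in esophagus of mouse 3 and 0 in the other 14 libraries. Rpl22l1 had 127, 180 and 113 CPM in esophagus of mice 1, 5 and 6, and Rps23rg1 had 180 and 179 in those of mice 5 and 8. Rpl22l1 and Rpl7l1 were the 2 paralogs with enough counts to test. Rpl7l1 had 33 counts in esophagus of mouse 1 and 1 in colon of mouse 8. Rpl10l and Rpl39l, known in mice for their use in the testis, had 0 to 23 and 0 to 10 counts per library. Among pseudogenes Rpl9-ps6 had 167 counts in colon of mouse 8 and 0 to 8 elsewhere; it was chosen after its values were seen.

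Summed as a list, other genes known for TOP mRNAs were also highest in colon of mouse 8 among colon libraries, but single genes differed. The list of 16 translation factors and related genes held 606 to 1424 CPM in esophagus, 602, 629, 569 and 1801 in colon of mice 5, 6, 7 and 8, and 556 to 656 in bone marrow. Elongation factor Eef1a1 had 359 counts in colon of mouse 8 and 6, 6 and 21 in the other colon libraries, and Tpt1 had 207, against 20, 4 and 24. Hnrnpa1 and Npm1 were instead lowest there, at 13.1 and 14.7 CPM, against 35.2 to 69.3 and 23.4 to 48.1 in the other colon libraries. Pabpc1, Eef1d, Naca and Btf3 were each higher in another colon library. None of the 12 tested was called in any comparison by edgeR, and 1 to 2 per comparison passed an unadjusted p under 0.05.

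Among colon libraries, other parts of the translation machinery set mouse 8 less apart, while in esophagus some of them varied as widely. The 34 ribosome biogenesis genes, which build and modify the particle, held 1370 CPM in colon of mouse 8 and 1333 to 1483 in the other colon libraries, against 346 to 1581 in esophagus and 1053 to 1688 in bone marrow. The 77 mitochondrial ribosomal proteins, which belong to a separate ribosome, held 3179 there and 2086 to 2572 in the other colon libraries, against 1933 to 2818 in esophagus and 1846 to 2236 in bone marrow. The 25 initiation factors held 1332 there and 1174 to 1285 in the other colon libraries, against 854 to 2986 in esophagus, with mouse 1 the highest, and 1082 to 1216 in bone marrow. The 11 genes of mTOR and TOP mRNA control, Larp1 among them, held 606 there and 713 to 801 in the other colon libraries, against 210 to 1145 in esophagus and 582 to 879 in bone marrow. No gene of these 4 lists was called by edgeR in any comparison. At an unadjusted p under 0.05 the lists had 0 to 2 genes each per comparison. Tested were 13 biogenesis genes, 25 mitochondrial ribosomal proteins, 16 initiation factors and 9 control genes. Of all genes, 0.686% were higher and 3.9% lower at that p in esophagus against bone marrow. The shares were 0.512% and 1.6% in colon against bone marrow, and 0.579% and 2.08% in esophagus against colon.

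Other measures moved with some of the libraries that were high. Mitochondrial genes held 7.52% of counts in colon of mouse 8 and 0.297 to 1.003% in the other colon libraries. In esophagus they held 3.87% in mouse 1 and 2.84% in mouse 3, and 0.301 to 0.440% in the other 5. Mouse 5, high in members' share, was among those 5, and colon of mouse 6, with the 1.003%, had the lowest members' share. Rn18s, which holds reads of ribosomal RNA, took 0.837, 2.61 and 1.26% in esophagus of mice 1, 3 and 5 and 0.323 to 0.576% in the other 4. It took 0.245% in colon of mouse 8 and 0.182 to 0.268% in the other colon libraries, against 0.324 to 0.521% in bone marrow. The 9 macrophage markers held 473, 607 and 674 CPM in esophagus of mice 1, 3 and 5, with 5 detected in each, and 169 to 414 in the other 4. They held 150 in colon of mouse 8 and 162 to 192 in the other colon libraries, against 126 to 296 in bone marrow. Of these markers Adgre1 was at 0 in esophagus of mice 1 and 5 and Mrc1 in those of mice 3 and 5. Other lists differed in esophagus of mice 1, 3 and 5. Neutrophil markers held 56.5, 315 and 180 CPM there, against 110 to 123 in the other 4. B and plasma cell markers held 91.8, 385 and 427, against 197 to 343. T and NK cell markers held 0, 245 and 112, against 172 to 301. Squamous epithelium markers held 148, 385 and 78.7, against 133 to 355. Fibroblast markers held 98.8, 152 and 146, against 252 to 387. The 15 markers of colon epithelium held 2329 CPM in colon of mouse 8, with 13 detected, and 189 to 234.8 in the other colon libraries. Of the 1426 counts on this list, Lgals4 had 404 and Krt8 266, while Krt18 and Phgr1 were at 0. In esophagus the same list held 162 to 544 CPM, and in bone marrow 269 to 402. Their part in the ribosomal protein counts was not tested.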

How the data were processed

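Eosinophil libraries (7 of esophagus, 4 of colon, 4 of bone marrow) were made from amplified total RNA (Ovation RNA-seq System V2, then NEB library preparation), per the labels' protocols. The authors deposited 1 table of raw counts per gene, whole numbers with no normalization. Limma 3.50.3 is listed, its use unstated, per the submitters' processing notes. Which aligner, counting tool, genome build or annotation was used is not given in the sources used here.

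Members were taken by symbol. The members and gene lists were chosen with earlier results of these data known. Gene class and exonic length came from GENCODE M21, matched by Ensembl identifier for 26299 of 26366 genes (99.7%). All 77 ribosomal proteins and 100 of 101 members had a length. Levels are CPM of the library total or counts per exonic kilobase; shares have 95% Wilson intervals, which cover counting error alone, as reads copied in amplification do not count separate molecules.

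Tissues were compared with edgeR 4.0.16 (quasi-likelihood, TMM, filterByExpr with a minimum count of 10 and minimum total of 15, robust, 12 residual degrees of freedom, no block) in R 4.3.3. SE are from the F statistic. The fit was run on simulated counts with known folds. Its estimates were checked only at a smaller spread between libraries than in these data. That check does not show how many differences would be missed here. Alternatives used DESeq2 1.42.0 and limma 3.58.1, other scalings and no filter, mouse as a block, fewer libraries and each library left out. Other steps used Python 3.11.15, numpy 2.4.6, scipy 1.17.1 and pandas 2.3.3. RefSeq windows gave the start sequences; where a gene has several, the first listed was used.

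Libraries of mice 5 to 8 are paired by the labels, which name the mouse. Deviations from group means correlated at -0.005 to 0.030 in 12 same-mouse pairs (mean 0.016) and at -0.060 to 0.060 in 36 other pairs. The p-values measure the spread between mice within a group.

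Members were named by rule: any called, the 10 with the most counts per kilobase, the 5 with the smallest p and the 5 with the largest fold in each comparison, any at 0 in all libraries or holding over 20% of a library's member counts, and 7 for their roles. No member met the rules on calls, on 0 or on that share. Other named members were chosen after their values were seen. Some results on single genes are not reported here.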

Additional observations from a re-analysis of the deposited data

Results flagged for a closer look

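Within a group, the highest or lowest library was set against the others by Dixon's test for 75 groups of values (the shares, the level relative to smell receptors and 23 named members), and 27 stood apart at 95%. Chance alone marks about 1 in 20 groups of values that were not chosen for their size. Most of these members were named for their level, fold or p in the same libraries, so that rate does not apply to them. Values below are CPM unless a unit is given.

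Colon of mouse 8 gave 15 of the 27, as the highest of its group each time. It stood apart for the members' share of counts (1.36%) and for ribosomal proteins relative to smell receptors (6.27). In the same library Rps9 was at 1159, Rpl13a at 614, Rpl23 and Rps3a1 each at 568, Rps21 at 426, Rpl23a at 384 and Rpl38 at 363. Rpl36 was at 283, Rplp1 at 276, Rpl37 at 248, Rpl32 at 194, Rplp2 at 171 and Rplp0 at 94.7. Colon of mouse 5 stood apart for Rpl19, at 23.1.

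In esophagus the libraries that stood apart were mostly the shallow ones. Esophagus of mouse 1 did so for Rpsa (508), Rpl7a (275) and Rpl38 (113). Esophagus of mouse 3 did so for Rpl19 (362), Rpl36 (152) and Rplp1 (140). Esophagus of mouse 5 did so for Rpl13a (236) and Rps3a1 (157), and that of mouse 2 for Rpl23a (26.9). In bone marrow, mouse 6 was apart for Rpl36 (106) and mouse 7 for Rps7 (41.9).

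Tissue differences differed between the cages, which are also the sexes, for Rpl38, with an edgeR adjusted p of 0.0440; without colon of mouse 8 it was 1.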

How the results depend on the processing

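Counts of called members were 0 in each comparison and direction with TMM, and stayed at 0 with other scalings, DESeq2, limma voom, the 3 shallowest esophagus libraries left out, and with mouse as a replicate block, fixed or random, which changed no call. With no filter on low counts, 2 members were called higher in colon than in bone marrow (Rps2, Rps9) and 3 lower in esophagus than in colon (Rpl23a, Rps9, Rps12l1). Leaving out each library in turn gave 0 to 1 called higher in esophagus than in bone marrow, 0 to 2 higher in colon than in bone marrow, and 0 to 1 lower in esophagus than in colon; the libraries are named beside Rps7 and Rps9 above, and no call came without colon of mouse 8. The cage interaction had 2 members with relative log expression factors (Rpl38, Rps9), 0 with library size alone, and 0 to 2 over the 15 libraries left out. These, and the medians of folds with libraries left out, were added after seeing the data. The share of all genes called is given only for the TMM fits over all 15 libraries. Calls in other settings, here and above, are thus not set against those of other genes.

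Of 17 member folds, 11 never changed sign over their settings. With limma voom quality weights, colon against bone marrow was -0.26 for Rpl13a and -0.065 for Rpl37, and esophagus against colon was 0.37 for Rpl13a and 0.34 for Rps9. Without colon of mouse 8 and the 3 shallowest esophagus libraries, an alternative added after seeing the data, Rps9 was -0.92 and 1.52 in these comparisons. Over single libraries left out, colon against bone marrow ran from -1.24 to 4.08 for Rpl13a, -0.48 to 3.26 for Rpl37 and -0.95 to 3.64 for Rps9. Esophagus against colon ran from -2.58 to 2.53 for Rpl13a, -4.62 to 2.81 for Rpl38 and -3.06 to 1.36 for Rps9. The reversed end is in each case without colon of mouse 8.

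The mean share ran over 0.499 to 0.587% in esophagus, 0.237 to 0.615% in colon, against 0.266 to 0.282% in bone marrow with a library left out. In bone marrow it was 0.349% without the 1% of genes with the most counts, 0.229% without S6 kinases and Rps19bp1, and 0.363% with pseudogenes. The members' level relative to smell receptors in bone marrow, 0.935, was 1.08, 1.09 and 1.10 without the top 1%, without S6 kinases and Rps19bp1, and as a median over genes. That median was not computed for esophagus, where smell receptors had a median of 0 in 2 of 7 libraries. Depth limits single genes most: a count of 0 allows up to 35.0 CPM in the shallowest library.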
